A study of Homo sapiens with 14 samples.

Results

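The genes described here are 10 members of the bone morphogenetic protein (BMP) pathway: the ligands BMP2, BMP4 and BMP6, the signal transducer SMAD9, the target genes ID1, ID2, ID3 and ID4, and the feedback inhibitors SMAD6 and BAMBI. They were chosen from known genes of the pathway with fold changes between these libraries in view, so their levels and fold changes are a description and carry no p-value. All 10 were found by gene name among the 56479 genes of the count table, and all 10 were among the 19232 genes with enough counts to be tested. BMP6 reached the low-count cutoff of 0.391 CPM in only 5 of 14 libraries, 4 of them PEG libraries, so its difference there was built into its being tested.

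The libraries came from 2 established human liver cancer lines, HepG2 (labelled hepatoblastoma) and Hep3B (labelled hepatocellular carcinoma), both labelled WT. Each of the 7 groups held 2 libraries. HepG2 cells on culture dishes were kept for 5 days in isotonic medium or in medium with 4% (v/v) polyethylene glycol 300 (PEG), which raises osmolarity and compresses cells by drawing out water. HepG2 cells on transwell membranes were left uncompressed or were compressed by a weight. Hep3B cells on transwell membranes were left uncompressed, were compressed by a weight, or were kept in medium with 3% PEG. How heavy the weight was, and how long the transwell cultures ran, the labels do not say. In HepG2 the kind of compression therefore cannot be told apart from the culture surface, while both Hep3B comparisons share the same 2 uncompressed libraries.

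BMP ligands bind type I and type II serine/threonine kinase receptors at the cell surface, which phosphorylate SMAD1, SMAD5 and SMAD9; these join SMAD4 and act on promoters in the nucleus. ID genes are among the most direct targets, and their proteins lack a DNA-binding region and hold basic helix-loop-helix factors away from DNA. SMAD6 and BAMBI are induced by the same signal and dampen it, SMAD6 inside the cell and BAMBI as a receptor without a kinase domain. In the liver BMP6 and BMP2 made by sinusoidal endothelial cells drive the hepatocyte hormone gene HAMP, which encodes the iron regulator hepcidin.

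Levels are in CPM (counts scaled to a common library size after TMM), given for replicates 1 and 2 in that order or as mean ± SD (n = 2). Log2 fold changes carry a standard error (SE) worked back from edgeR's quasi-likelihood test. It is the absolute log2 fold change divided by the square root of the test's F statistic. For genes with few counts it can understate counting error, as for BMP2 in HepG2, where exact intervals are given. A gene is said to have risen or fallen where its Benjamini-Hochberg adjusted p over all 19232 genes was under 0.05. A library held 21.2 M to 35.4 M counts. The dish libraries stood apart: the biological coefficient of variation (BCV, the spread beyond counting error) was 0.323 and 0.29 in the 2 dish groups and 0.0434 to 0.0704 in the 5 transwell groups. On dishes the difference between replicates followed the GC content of the gene (Spearman rho of -0.778 and -0.784 across 10860 genes, which are not independent replicates), and ID1, ID3 and SMAD6 lay at the 84.3, 80.4 and 85.2 percentiles of GC content. A common spread was fitted over both surfaces, so it is too narrow for dishes and too wide for transwells, and counts from a fit of the same surface alone are given beside the members' counts. ALB was at 2578 to 54410 CPM in HepG2 and 16500 to 27650 CPM in Hep3B, and AFP at 1463 to 24490 and 197 to 637 CPM. The summed CPM of 6 hepatocyte markers was 91930 to 94090 on isotonic dishes and 13940 to 14780 in 4% PEG, 76460 to 76500 and 63420 to 65940 in uncompressed and weighted HepG2, and 32350 to 32430, 31680 to 32130 and 19820 to 20620 in uncompressed, weighted and 3% PEG Hep3B. The sum of 8 markers of endothelial, immune and stromal cells never passed 65.7 CPM, and 1 to 3 of the 8 were at 0 in a group. In bulk RNA, fewer cells of a kind and less RNA per cell cannot be told apart.

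Promoter sequence was available for 9 members (RefSeq, GRCh38.p14; BMP2 has no entry) and was searched from 250 bases before to 50 after the start. The search used GGCGCC, a GC-rich element known to bind BMP-activated SMADs, and CANNTG, the E-box bound by the factors that ID proteins sequester; both read the same on either strand. GGCGCC occurs in 6748 of 35116 such promoters (19.2%) and CANNTG in 24117 (68.7%). Of the members, only BAMBI (3 matches, beginning at -209, -196 and -181) and 1 of 3 BMP4 entries (-232 and 2) held GGCGCC. Among the targets outside the members, only HAMP was searched, and it held GGCGCC once, at -105. CANNTG was found in ID2 (-205), ID4 (-21), SMAD6 (-1), SMAD9 (-178), another BMP4 entry (-83) and HAMP (-234). The 250 bases before the start are shown for ID1 and ID2, the ID genes with the highest levels, and for BAMBI and HAMP, which hold the GC-rich element, with GGCGCC in capitals. A match is a match of letters only, and its absence says only that these letters are not in this window.
ID1, chr20:31605039-31605288, plus strand: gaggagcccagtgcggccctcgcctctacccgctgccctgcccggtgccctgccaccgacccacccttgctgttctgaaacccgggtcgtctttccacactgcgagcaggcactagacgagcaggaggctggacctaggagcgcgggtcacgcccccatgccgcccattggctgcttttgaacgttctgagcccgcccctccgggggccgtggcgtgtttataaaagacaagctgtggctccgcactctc
ID2, chr2:8681806-8682055, plus strand: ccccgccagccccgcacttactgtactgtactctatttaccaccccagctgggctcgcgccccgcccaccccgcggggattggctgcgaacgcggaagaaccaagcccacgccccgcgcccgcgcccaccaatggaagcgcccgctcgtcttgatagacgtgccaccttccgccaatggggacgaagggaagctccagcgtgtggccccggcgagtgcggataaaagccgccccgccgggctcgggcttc
BAMBI, chr10:28677271-28677520, plus strand: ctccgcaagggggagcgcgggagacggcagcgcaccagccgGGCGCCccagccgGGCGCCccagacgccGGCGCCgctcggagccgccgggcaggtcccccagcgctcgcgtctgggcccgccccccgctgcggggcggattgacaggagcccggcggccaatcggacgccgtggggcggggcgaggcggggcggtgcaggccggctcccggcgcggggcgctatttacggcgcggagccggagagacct
HAMP, chr19:35282278-35282527, plus strand: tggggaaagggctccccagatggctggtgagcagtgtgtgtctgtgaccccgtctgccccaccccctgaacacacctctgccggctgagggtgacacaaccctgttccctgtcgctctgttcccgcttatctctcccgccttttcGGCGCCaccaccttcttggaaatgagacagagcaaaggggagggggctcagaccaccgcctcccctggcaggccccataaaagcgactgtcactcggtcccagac

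In HepG2 on dishes, 4% PEG went with lower BMP4, ID1, ID2, SMAD6, SMAD9 and BAMBI and with higher BMP2 and BMP6. That is 2 members up and 6 down, where 23.9% of all tested genes were called higher and 23.0% lower; since these fold changes were in view when the members were chosen, nothing is read from the counts. ID3 and ID4 did not pass. The median log2 fold change of the 10 members was -0.71, against 0.01 for all genes tested. In a fit of the 4 dish libraries alone, 5 members passed (BMP2, BMP6, BMP4, ID1 and ID2) where 19.3% of genes did, and SMAD6, SMAD9 and BAMBI no longer passed. Mitochondrial genes held 7.34% and 5.05% of counts in the 4% PEG libraries, against 1.87% and 0.999% on isotonic dishes and 0.808% to 3.60% on transwells; their part in these results was not tested.

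Under the weight, BMP2, BMP4, ID2, SMAD6 and BAMBI rose in HepG2 and none fell, where 5.40% of all tested genes were called higher and 4.18% lower. The members' median log2 fold change was 0.73, against 0 for all genes. BMP4, ID2, SMAD6 and BAMBI had fallen in 4% PEG, whereas BMP2 rose in both. ID1, ID3, SMAD9 and BMP6 had higher values without passing, and ID4 a lower one (-0.16 ± 0.27). In the fit of the 10 transwell libraries alone 8 members passed, all higher (ID1, ID3 and SMAD9 in addition), where 36.9% of genes passed. With any 1 of the 4 compared libraries left out, 1 to 2 members passed in the fit with dishes: BMP4, ID2 and SMAD6 never did, at log2 fold changes of 0.52 to 0.59, 0.77 to 0.93 and 0.71 to 0.89, and BAMBI did only without weight replicate 2 (0.76 to 0.84 over the 4 fits).

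In Hep3B the same comparison gave a single member past the threshold, ID4, which was lower. The shares called over all tested genes were 0.879% higher and 0.172% lower, and the members' median was -0.39 against -0.01. Without passing, BMP2, ID3, SMAD6, SMAD9 and BAMBI had lower values in both weighted libraries than in both uncompressed ones. ID2 had higher values in both weighted libraries (0.24 ± 0.22) and did not pass either. The share of all genes that separate in this way was not counted, so nothing is read from it. In the fit of transwell libraries alone 6 members passed, with ID2 higher and BMP2, ID3, ID4, SMAD6 and BAMBI lower, where 14.7% of genes passed. With any 1 of the 4 libraries left out, ID4 no longer passed, at -1.11 to -1.05.

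With 3% PEG in Hep3B, BMP6 and SMAD9 rose and BMP4 and ID2 fell, where 11.0% of all tested genes were called higher and 11.5% lower. The members' median was 0.14 against -0.01. In the transwell fit 7 members passed, adding BMP2, ID1 and BAMBI, all higher, where 49.9% of genes passed. BMP6 no longer passed without uncompressed replicate 2 (2.11) and ID2 without 3% PEG replicate 2 (-0.97). Set directly against 3% PEG, the weighted Hep3B libraries had higher BMP4 and ID2 and lower BMP2, BMP6, ID4, SMAD9 and BAMBI, where 11.8% of genes were called higher and 11.4% lower; without weight replicate 2, BMP6 did not pass (-1.98). In the transwell fit 9 members passed there, with ID1 and ID3 lower in addition, where 49.6% of genes passed. BMP6 is among the members counted in both comparisons and both fits. Of the Hep3B libraries only those with 3% PEG reached its low-count cutoff, so its calls here are not counted as support.

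**Figure D1:**
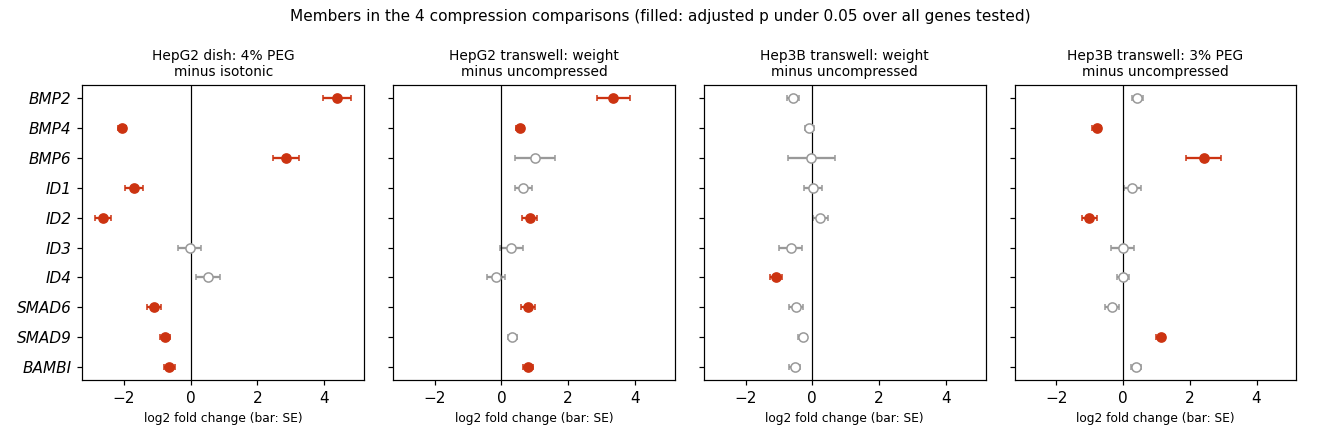
Log2 fold change of each member (x axis; bar, SE) in 4% PEG against isotonic HepG2 on dishes, weight against uncompressed HepG2 and Hep3B on transwells, and 3% PEG against uncompressed Hep3B; filled points have an adjusted p under 0.05 over 19232 genes. BMP4 and ID2 lie left of 0 in both PEG panels and right of 0 in the HepG2 weight panel. The SE is worked back from the test and can understate counting error where counts are few, as for BMP2 in HepG2.

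BMP4 (chr14:53949736-53958761, minus strand, GRCh38), the member ligand with the highest level in HepG2, was at 162 and 137 CPM on isotonic dishes and 36.6 and 35.2 CPM in 4% PEG. On transwells it was at 125 and 119 CPM in uncompressed HepG2 and 183 and 176 CPM under the weight. In Hep3B it was at 5.31 and 4.88 CPM uncompressed, 5.08 and 4.50 CPM under the weight, and 2.98 and 2.93 CPM in 3% PEG. The 4% PEG libraries were the lowest of HepG2 and the 3% PEG libraries the lowest of Hep3B, and in both lines they did not overlap with their controls. The fold change was 4.16-fold lower in 4% PEG (log2 -2.06 ± 0.12 SE) and 1.72-fold lower in 3% PEG (-0.78 ± 0.14). Under the weight it was 1.47-fold higher in HepG2 (0.56 ± 0.11), while the Hep3B libraries overlapped (-0.09 ± 0.13).

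BMP2 (chr20:6767664-6780280, plus strand) was nearly absent from HepG2 without compression: each isotonic and each uncompressed library held 1 count. In 4% PEG the libraries held 24 and 33 counts and under the weight 12 and 10. The ratio of normalised counts was 23.2 in 4% PEG (57 against 2 counts, exact 95% interval 6.14 to 196) and 11.3 under the weight (22 against 2, 2.77 to 98.8); the intervals cover counting error only. Both compressed groups of HepG2 were thus above their controls, yet at only 0.942 ± 0.255 and 0.482 ± 0.0218 CPM. Hep3B had far more, 22.0 and 22.5 CPM uncompressed, 15.8 and 13.9 CPM under the weight and 30.9 and 28.6 CPM in 3% PEG. The 3 groups of Hep3B did not overlap, with the weighted libraries lowest. The log2 fold changes were -0.58 ± 0.17 for the weight and 0.42 ± 0.17 for 3% PEG, neither of which passed in the fit of all libraries. In the transwell fit both passed (-0.56 ± 0.09 and 0.47 ± 0.09), beside the shares of all genes given above.

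BMP6 (chr6:7726797-7881422, plus strand), the main iron-responsive BMP ligand, was low everywhere. It was at 0.707 and 0.282 CPM on isotonic dishes and 3.21 and 4.22 CPM in 4% PEG. In Hep3B the counts were 5 and 3 uncompressed, 5 and 2 under the weight, and 18 and 23 in 3% PEG. The PEG libraries were the highest of each line. Its change was 2.84 ± 0.39 (log2) in 4% PEG, ranging from 2.38 to 3.70 with 1 library left out, and 2.42 ± 0.52 in 3% PEG. Under the weight HepG2 went from 5 and 3 counts to 9 and 7 (1.01 ± 0.60), which did not pass.

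SMAD9 (chr13:36844831-36920765, minus strand) encodes a BMP-activated SMAD alongside SMAD1 and SMAD5. It was at 37.3 and 35.0 CPM on isotonic dishes and 23.0 and 19.4 CPM in 4% PEG, at 27.9 and 28.0 CPM in uncompressed and 33.1 and 36.8 CPM in weighted HepG2. In Hep3B it was at 10.3 and 11.4 CPM uncompressed, 9.15 and 8.61 CPM under the weight, and 23.2 and 24.2 CPM in 3% PEG. The PEG libraries were thus the lowest of HepG2 and the highest of Hep3B, without overlap in either line. The change was -0.77 ± 0.14 (log2) in 4% PEG and 1.13 ± 0.14 in 3% PEG; those come from different lines, surfaces and PEG doses, and their difference was not tested.

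**Figure D2:**
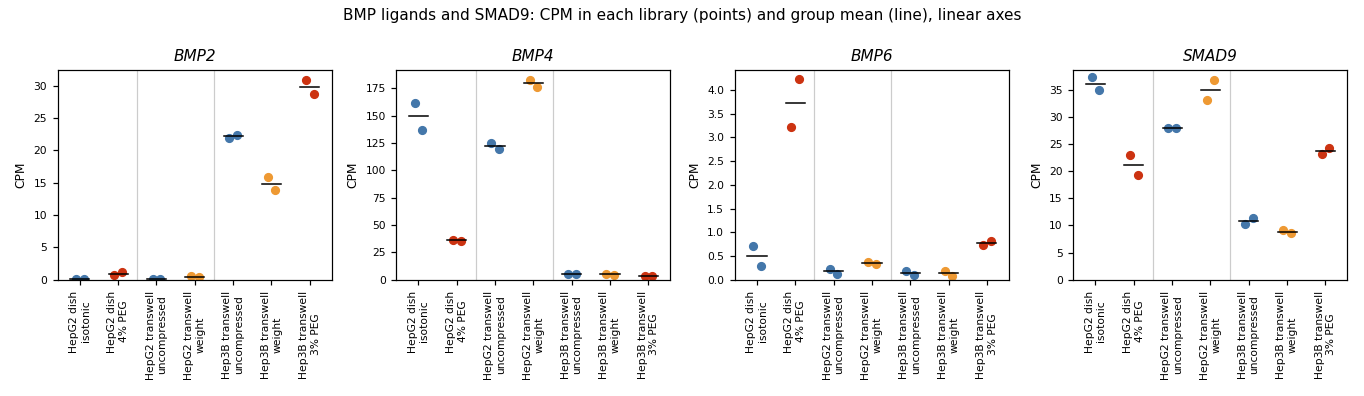
CPM (y axis, linear from 0) of BMP2, BMP4, BMP6 and SMAD9 in each of the 14 libraries (points) with the group mean (line), by line, surface and treatment (x axis). BMP4 is at 119 to 183 CPM in all HepG2 groups except 4% PEG (35.2 and 36.6 CPM) and at no more than 5.31 CPM in Hep3B, whereas BMP2 is at 13.9 CPM or more in Hep3B and at most 1.12 CPM in HepG2.

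ID1 (chr20:31605283-31606515, plus strand), the classical BMP target, was at 118 and 253 CPM on isotonic dishes and 52.7 and 61.6 CPM in 4% PEG. On transwells it was at 104 CPM in both uncompressed HepG2 libraries and 168 and 159 CPM under the weight. The groups did not overlap in either comparison. The log2 fold change was -1.70 ± 0.26 in 4% PEG, and it was -1.05 without isotonic replicate 2 and -2.15 without isotonic replicate 1. Under the weight it was 0.65 ± 0.25 and did not pass; in the transwell fit it was 0.69 ± 0.06. In Hep3B all 6 libraries lay between 33.2 and 43.6 CPM, with log2 fold changes of 0.02 ± 0.26 for the weight and 0.28 ± 0.26 for 3% PEG.

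ID2 (chr2:8678845-8684453, plus strand) had the widest range of the ID genes in HepG2. It was at 353 and 326 CPM on isotonic dishes and 71.9 and 37.5 CPM in 4% PEG, and at 171 and 153 CPM in uncompressed and 305 and 278 CPM in weighted HepG2. In Hep3B it was at 142 and 151 CPM uncompressed, 168 and 179 CPM under the weight and 74.6 and 70.7 CPM in 3% PEG. As with BMP4, the PEG libraries were the lowest of each line and the weighted libraries lay above the uncompressed ones in HepG2. The fold change was 6.21-fold lower in 4% PEG (-2.63 ± 0.23), 2.02-fold lower in 3% PEG (-1.01 ± 0.22) and 1.80-fold higher under the weight in HepG2 (0.85 ± 0.22). In weighted Hep3B it was 0.24 ± 0.22 without overlap, which did not pass in the fit of all libraries but did in the transwell fit (0.26 ± 0.06). ID2 shares 38 exon bases with its antisense neighbour ID2-AS1, which had 10 to 55 counts per library, and whether reads were counted by strand is unknown. Without compression, HepG2 had 339.5 ± 19.1 CPM on dishes and 162.0 ± 12.8 CPM on transwells; what else differed between the dish and transwell cultures the labels do not say.

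ID3 (chr1:23557918-23559794, minus strand), which is often induced together with ID1, was at 10.2 and 30.8 CPM in isotonic medium and 19.0 and 20.9 CPM in 4% PEG, so both treated libraries lay between the controls. The log2 fold change of -0.03 ± 0.35 became -0.63 without isotonic replicate 1 and 0.97 without isotonic replicate 2, and both of those passed in opposite directions. On transwells ID3 was at 15.6 and 17.0 CPM in uncompressed and 20.0 and 19.9 CPM in weighted HepG2 (0.30 ± 0.35). In Hep3B it was at 20.5 and 19.2 CPM uncompressed, 12.6 and 12.7 CPM under the weight (-0.65 ± 0.35) and 18.9 and 20.4 CPM in 3% PEG. The weighted libraries were thus the highest of transwell HepG2 and the lowest of Hep3B, without overlap, though neither difference passed in the fit of all libraries. In the transwell fit both passed (0.33 ± 0.09 in HepG2 and -0.63 ± 0.09 in Hep3B), beside the shares of all genes given above.

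ID4 (chr6:19837386-19840684, plus strand), a further inhibitor of helix-loop-helix factors, was scarce in HepG2. HepG2 libraries held 5 to 22 counts, at most 0.937 CPM. Hep3B was at 19.0 and 18.4 CPM uncompressed, 8.69 and 9.01 CPM under the weight and 19.9 and 17.5 CPM in 3% PEG. The weighted libraries stood apart from both other groups, which overlapped. The change was -1.08 ± 0.18 (log2) under the weight (2.11-fold lower) and 0.00 ± 0.18 in 3% PEG.

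SMAD6 (chr15:66702228-66782848, plus strand), the inhibitory SMAD of the BMP branch, was at 6.01 and 7.61 CPM on isotonic dishes and 3.02 and 3.30 CPM in 4% PEG. It was at 5.62 and 6.37 CPM in uncompressed and 10.3 and 10.6 CPM in weighted HepG2. The groups did not overlap in either comparison, and the fold change was 2.15-fold lower in 4% PEG (-1.10 ± 0.21) and 1.74-fold higher under the weight (0.80 ± 0.21). In Hep3B it was at 7.69 and 7.54 CPM uncompressed, 6.19 and 4.62 CPM under the weight (-0.49 ± 0.21) and 6.73 and 5.37 CPM in 3% PEG (-0.33 ± 0.21). Both treated groups of Hep3B lay below the control without passing in the fit of all libraries, and they overlapped with each other. In the transwell fit the weight passed (-0.47 ± 0.15) and 3% PEG did not (-0.29 ± 0.14).

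BAMBI (chr10:28677342-28682939, plus strand), the pseudoreceptor, was at 15.4 and 22.3 CPM on isotonic dishes and 12.3 and 11.8 CPM in 4% PEG. The log2 fold change of -0.64 ± 0.16 was -0.35 without isotonic replicate 2 and -0.89 without isotonic replicate 1. It was at 16.6 and 16.9 CPM in uncompressed and 30.1 and 28.4 CPM in weighted HepG2, 1.74-fold higher (0.80 ± 0.16). Hep3B had more, 59.8 and 58.7 CPM uncompressed, 40.9 and 41.0 CPM under the weight (-0.53 ± 0.15) and 76.7 and 79.3 CPM in 3% PEG (0.40 ± 0.15). The 3 Hep3B groups did not overlap, in the order weight, uncompressed, 3% PEG, which is also the order of BMP2 and SMAD9 there. How many of all genes have this order was not counted, so nothing is read from it.

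**Figure D3:**
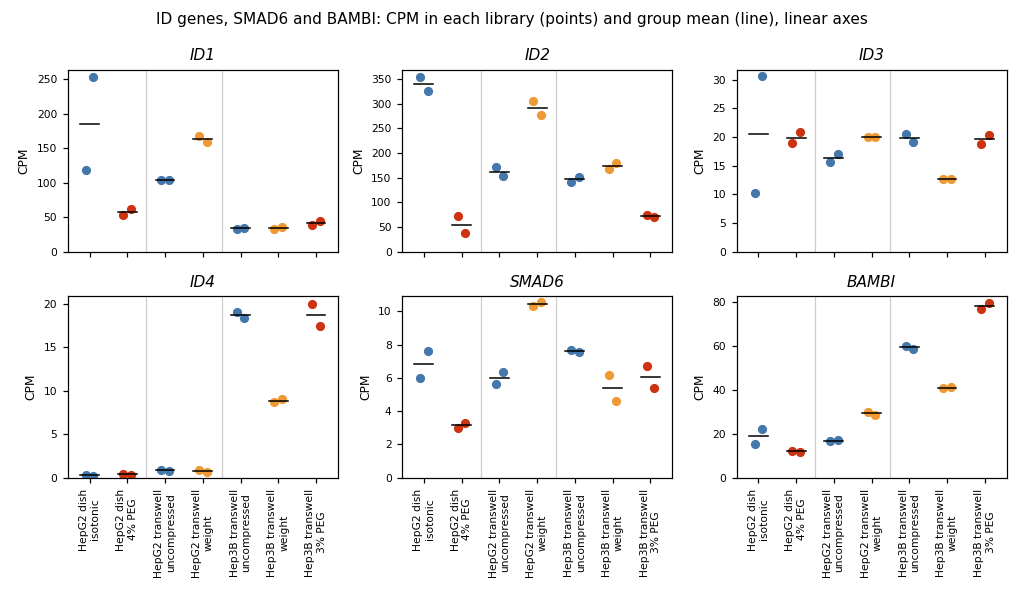
CPM (y axis, linear from 0) of the 4 ID genes, SMAD6 and BAMBI in each of the 14 libraries (points) with the group mean (line), by line, surface and treatment (x axis). ID1, ID2, SMAD6 and BAMBI are lower in 4% PEG than on isotonic dishes and higher under the weight than in uncompressed HepG2; the 2 isotonic libraries of ID3 (10.2 and 30.8 CPM) lie on either side of the 4% PEG libraries.

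Between genes, levels are compared per kilobase of exon. In uncompressed HepG2 on transwells the order was ID1 (84.3 CPM per kb), ID2 (73.5), BMP4 (39.6), ID3 (9.05), BAMBI (7.24), SMAD9 (4.88), SMAD6 (0.700), ID4 (0.376), BMP6 (0.0624) and BMP2 (0.0119). In uncompressed Hep3B it was ID2 (66.5 CPM per kb), ID1 (27.5), BAMBI (25.6), ID3 (11.0), ID4 (7.98), BMP2 (6.17), SMAD9 (1.90), BMP4 (1.65), SMAD6 (0.889) and BMP6 (0.0504). Among the member ligands, RNA was thus highest for BMP4 in HepG2 and for BMP2 in Hep3B. Ligands outside the members were not compared in this way. Of the members, BMP2, ID4 and BAMBI were called higher and BMP4, ID1 and SMAD9 lower in uncompressed Hep3B, where 27.6% of all tested genes were called higher and 27.1% lower. In the transwell fit 8 members passed, with ID3 higher and ID2 lower in addition, where 71.0% of genes passed. The ratio for BMP2 was 517.5 (1269 against 2 counts, exact 95% interval 143 to 4277) and BMP4 was 23.9-fold lower.

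The weight effect in Hep3B minus that in HepG2 was negative for all 10 members, from -0.61 to -3.93 on the log2 scale. Their median was -0.93, against 0.01 for all genes tested. Of the members 8 did not pass, some with a wide SE, such as BMP6 (-1.04 ± 0.94), ID1 (-0.63 ± 0.36) and ID3 (-0.94 ± 0.50). These values too were in view when the members were chosen, so they are a description. BMP2 (-3.93 ± 0.52) and BAMBI (-1.33 ± 0.22) passed, where 0.822% of all genes were called higher and 1.07% lower. The value of BMP2 is a fitted one that rests on the 2 uncompressed counts of HepG2. It is no bound, and its SE can understate counting error. SMAD6 (-1.29 ± 0.29) did not pass, though it did under the other filters and scalings and in DESeq2. With the replicate block SMAD6 did not pass either (-1.29), and it ranged from -1.52 to -1.09 with 1 library left out. BAMBI no longer passed in 7 of 8 fits that left out a library (-1.38 to -1.29). In the transwell fit 9 members passed, all but BMP6, where 21.1% of genes passed.

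Of 60 other BMP pathway genes listed by role, 44 were tested. Their adjusted p-values are those of edgeR's quasi-likelihood test over all genes; since the lists too were drawn up with earlier results of these data known, they are not independent evidence. In 4% PEG 14 rose and 14 fell, where 23.9% of all genes were called higher and 23.0% lower. In weighted HepG2 5 rose and 1 fell (5.40% and 4.18% of all genes), in weighted Hep3B 1 rose (0.879%), and in 3% PEG 5 rose and 8 fell (11.0% and 11.5%). HEY2, CHRDL2 and RGMA reached the low-count cutoff in PEG libraries alone, so a difference there was built into their being tested. In the fits of the same surface alone, 5 rose and 3 fell in 4% PEG, where 19.3% of all genes passed in either direction. In weighted HepG2 16 rose and 4 fell (36.9% of all genes passed), and in weighted Hep3B 6 rose and 7 fell (14.7%). In 3% PEG 13 rose and 10 fell (49.9%). Of the genes named for 4% PEG in the next paragraphs, HAMP, ACVR1, ACVR2B, FST, NBL1, SMURF1 and SMURF2 also passed in the dish fit, whereas BMPR2, SMAD5, FSTL3, ATOH8, MSX1, BMP8B, TCF3 and TCF12 did not (edgeR adjusted p from 0.0532 to 0.325), nor did SMAD7, TWSG1, TMPRSS6 and HEY2 (0.0673 to 0.405).

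Among receptors in 4% PEG, 3 of 11 rose and 2 fell, beside 23.9% and 23.0% of all genes. ACVR1, the type I receptor of BMP6 and BMP7 class ligands, went from 20.1 and 20.0 CPM to 80.3 and 81.8 CPM (2.02 ± 0.11, edgeR adjusted p = 5.79e-08), which was near its level in Hep3B (83.8 to 104 CPM). The type II receptor ACVR2B went from 177 and 145 CPM to 53.4 and 63.1 CPM (-1.47 ± 0.17, edgeR adjusted p = 2.43e-05). BMPR2, a further type II receptor, rose in 4% PEG (0.87 ± 0.18, edgeR adjusted p = 0.00188) and in weighted HepG2, from 57.1 and 65.6 to 93.3 and 113 CPM (0.75 ± 0.18, edgeR adjusted p = 0.0229). The latter call ended in each of the 4 fits that left out a library (0.61 to 0.88). In 3% PEG only NEO1, a co-receptor of hemojuvelin, passed among receptors, and it fell (-0.59 ± 0.16, edgeR adjusted p = 0.0226; not passing with any of the 4 libraries left out, -0.65 to -0.53).

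Among transducers and intracellular inhibitors, SMAD5 fell in both PEG comparisons. It went from 131 and 96.0 to 72.7 and 59.9 CPM in 4% PEG (-0.78 ± 0.15, edgeR adjusted p = 0.00106) and from 272 and 289 to 186 and 178 CPM in 3% PEG (-0.62 ± 0.15, edgeR adjusted p = 0.00984, not passing in 3 of 4 fits that left out a library, -0.67 to -0.58). SMURF1 and SMURF2, ubiquitin ligases that mark BMP SMADs and receptors for degradation, rose in 4% PEG (1.17 ± 0.13 and 0.99 ± 0.14). SMAD7, the general inhibitory SMAD, fell in 4% PEG from 16.2 and 17.1 to 13.5 and 10.9 CPM (-0.45 ± 0.16, edgeR adjusted p = 0.0414); it did not pass without isotonic replicate 2 (-0.40), without 4% PEG replicate 2 (-0.30), with no filter (-0.49) or with scaling by total counts (-0.09). It rose in weighted HepG2 from 12.8 and 11.6 to 21.8 and 18.0 CPM (0.71 ± 0.16, edgeR adjusted p = 0.0191, not passing in 3 of 4 fits that left out a library, 0.56 to 0.84). It also rose in 3% PEG, from 14.1 and 15.1 to 28.8 and 30.3 CPM (1.01 ± 0.16, edgeR adjusted p = 0.00105), and SMAD6 was at -0.33 ± 0.21 there.

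Of 12 secreted antagonists tested, 4 rose and 3 fell in 4% PEG, 1 rose and 1 fell in weighted HepG2, 1 rose in weighted Hep3B, and 2 rose and 3 fell in 3% PEG, beside the shares of all genes given above. FSTL3, a follistatin-like binder of activins and some BMPs, went from 11.7 and 12.1 to 59.0 and 53.4 CPM in weighted HepG2 (2.24 ± 0.21, edgeR adjusted p = 7.9e-05), 4.72-fold higher. It fell in both PEG comparisons, by 1.31 on the log2 scale in 4% PEG (edgeR adjusted p = 0.000269) and by 1.28 in 3% PEG (edgeR adjusted p = 0.000875). FST, follistatin itself, was at 393 and 350 CPM on isotonic dishes and 112 and 122 CPM in 4% PEG (-1.67 ± 0.10, edgeR adjusted p = 2.12e-07). It also fell in weighted HepG2, from 411 and 409 to 267 and 270 CPM (-0.61 ± 0.10, edgeR adjusted p = 0.00349). In Hep3B it was low and rose, from 5.42 and 5.26 CPM to 8.00 and 7.69 CPM under the weight (0.55 ± 0.12, edgeR adjusted p = 0.0498, not passing with any of the 4 libraries left out, 0.53 to 0.58, nor with the replicate block, RLE scaling or no filter). In 3% PEG it rose to 7.41 and 8.33 CPM (0.56 ± 0.12, edgeR adjusted p = 0.00505; not passing without uncompressed replicate 2, 0.54, or without 3% PEG replicate 2, 0.47). NBL1 went from 12 and 20 counts to 129 and 321 counts in 4% PEG (3.50 ± 0.54, edgeR adjusted p = 0.000266; 2.63 to 4.13 with 1 library left out). TWSG1, a BMP-binding modulator, fell in 3% PEG (-0.87 ± 0.15, edgeR adjusted p = 0.00175) and rose in 4% PEG (0.61 ± 0.15, edgeR adjusted p = 0.00491).

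HAMP was at 4.67 and 20.8 CPM on isotonic dishes and 0.476 and 0.919 CPM in 4% PEG (-4.18 ± 0.63, edgeR adjusted p = 0.000221). The log2 fold change was -2.74 without isotonic replicate 2 and -4.90 without isotonic replicate 1, and it passed in each. In HepG2 on transwells it was at 4.86 and 4.01 CPM uncompressed and 12.2 and 11.1 CPM under the weight, without overlap; at 1.39 ± 0.53 this did not pass (edgeR adjusted p = 0.138), while in the transwell fit it was 1.42 ± 0.17 (edgeR adjusted p = 6.42e-08). Hep3B libraries held 0 to 8 counts. The summed hepatocyte markers were also lower in 4% PEG than on isotonic dishes, as given above, while under the weight they were lower and HAMP higher; their part in the result was not tested.

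Other targets did not all follow. ATOH8, a BMP and SMAD1/5 target in hepatocytes, held 1 count in each uncompressed HepG2 library and 25 and 19 under the weight, a ratio of 22.5 (exact 95% interval 5.87 to 192; edgeR adjusted p = 0.000947). It also rose in 4% PEG, from 1 count in each isotonic library to 7 and 15, a ratio of 8.96 (exact 95% interval 2.20 to 78.6; edgeR adjusted p = 0.0029), with fitted log2 values of 2.33 to 3.48 when 1 library was left out. HES1 rose in weighted HepG2, from 17.9 and 17.1 to 29.4 and 30.5 CPM (0.78 ± 0.21, edgeR adjusted p = 0.0355, not passing with any of the 4 libraries left out, 0.74 to 0.81). MSX1 rose in 4% PEG (0.86 ± 0.18, edgeR adjusted p = 0.00222). TMPRSS6, a protease that limits hepcidin induction, fell in 3% PEG from 44.1 and 45.5 to 14.3 and 17.1 CPM (-1.51 ± 0.37, edgeR adjusted p = 0.0131, not passing with any of the 4 libraries left out, -1.65 to -1.39). It also fell in 4% PEG (-1.88 ± 0.42, edgeR adjusted p = 0.00338; -2.56 to -1.01 with 1 library left out). HEY2 went from 0 and 1 counts to 12 and 12 in 3% PEG, a ratio of 25.8 (exact 95% interval 4.21 to 1061), and from 2 and 0 to 17 and 8 in 4% PEG, a ratio of 10.2 (2.54 to 88.7). Only 3 libraries, all with PEG, reached the low-count cutoff for HEY2, so its call is not counted as support; it ended without uncompressed replicate 1 in 3% PEG and without 4% PEG replicate 1 in 4% PEG. BMP8B, a further ligand, rose in 4% PEG (0.70 ± 0.24, edgeR adjusted p = 0.0317) and in 3% PEG (0.73 ± 0.20, edgeR adjusted p = 0.0232). The latter call ended in all 4 fits that left out a library (0.58 to 0.90), and the former in 3 of 4 (0.42 to 1.01).

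The E proteins TCF3 and TCF12, which ID proteins bind, fell in both PEG comparisons. TCF12 went from 114 and 104 to 71.7 and 72.2 CPM in 4% PEG (-0.60 ± 0.10, edgeR adjusted p = 0.000341) and from 162 and 171 to 120 and 119 CPM in 3% PEG (-0.49 ± 0.10, edgeR adjusted p = 0.00394). TCF3 fell by 0.63 (edgeR adjusted p = 0.00652) and by 0.75 on the log2 scale (edgeR adjusted p = 0.00532). Without isotonic replicate 2 the fall of TCF3 in 4% PEG was -0.36. Neither gene passed under the weight in either line (from -0.05 to 0.12).

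**Figure D4:**
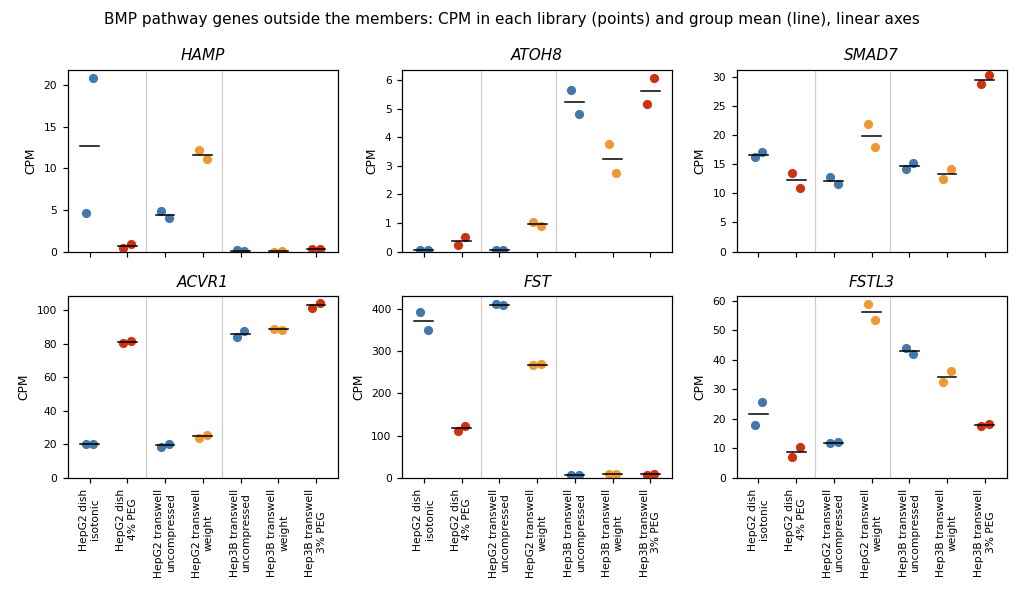
CPM (y axis, linear from 0) of HAMP, ATOH8, SMAD7, ACVR1, FST and FSTL3, pathway genes outside the members, in each of the 14 libraries (points) with the group mean (line). FSTL3 is at 53.4 and 59.0 CPM in weighted HepG2 against 11.7 and 12.1 CPM uncompressed, and HAMP at 11.1 and 12.2 against 4.01 and 4.86 CPM.

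The genes whose levels followed 3 members most closely were ranked among 10860 genes by Pearson's r of log2 CPM over the 14 libraries, after centring each line and surface; libraries of a group share their treatment, so r is a description. For BMP4 they were NR2F1 (0.994), CPE (0.991), FAM210B (0.990), PAQR8 (0.989) and GPC6 (0.988). For ID1 they were TLE1 (0.968), ZNF133 (0.964), VTN (0.964), C2 (0.963) and SNHG32 (0.961). For SMAD6 they were SLC38A5 (0.938), SLC25A26 (0.926), NCMAP (0.916), TMBIM6 (0.912) and NCK2 (0.908). None of them is on the pathway lists. The 14 libraries include those from dishes, whose replicate differences followed GC content, and their part in r was not tested.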

How the data were processed

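Total RNA was isolated with an RNeasy kit and sequenced as paired 100 bp reads on HiSeq or NovaSeq instruments, per the labels' protocols. STAR, DESeq2 and GRCh38 (hg38) are named in the submitters' processing notes, which give no versions or roles; the sources used here name no counting tool, annotation or strand setting. The authors deposited raw counts per gene for 14 libraries, not normalised. Entries with no gene name (15420 of 56479) held at most 0.308% of a library and were kept under their IDs. Uncompressed Hep3B was matched by elimination to the 2 Hep3B columns headed as control. The labels speak of biological replicates for the dishes only, so p-values measure the spread between these libraries, which may be technical. With 2 libraries a group and totals of 21.2 M to 35.4 M counts, that spread and not counting error limits precision, except for genes with few counts.

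Counts were fitted with edgeR 4.0.16 in R 4.3.3 (filterByExpr, minimum count 10; TMM; robust glmQLFit and glmQLFTest; 1 mean per group over all 14 libraries; 7 residual degrees of freedom), with Benjamini-Hochberg adjustment over 19232 genes and a threshold of 0.05. The fit was tested on simulated counts that had the same spread in every library. The simulation therefore cannot show how the fit behaves with the unequal spread of dishes and transwells. For a gene with 1 to 3 counts in a compared group, the ratio of scaled counts and an exact 95% interval replace the fitted fold in comparisons of 2 groups; the difference of effects between lines and the leave-one-out ranges keep the fitted value, which is no bound. Coordinates, exon lengths and GC content come from GENCODE 29 (GRCh38). Same-numbered replicates are not described as paired.

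The members and gene lists were chosen with earlier results of these data known. The genes named are all members, up to 3 genes per role list and comparison outside them by smallest p among those past the threshold, HAMP, ALB and AFP, and the 5 genes most like BMP4, ID1 and SMAD6; the remaining pathway genes are given as counts only. Alternatives were DESeq2 1.42.0, other scalings and filters, a replicate block, fits of the same surface or the compared groups alone, and each library left out.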

Additional observations from a re-analysis of the deposited data

Results flagged for a closer look

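The weight effect in Hep3B minus that in HepG2, on the log2 scale, is the interaction term of edgeR's quasi-likelihood fit. For 2 members it is a description only, since they were chosen with these values in view. BMP2 was at -3.93, a fitted value resting on 2 counts in uncompressed HepG2 (22 under the weight). BAMBI was at -1.33, going from 16.8 to 29.2 CPM in HepG2 and from 59.2 to 41.0 CPM in Hep3B, and its difference did not pass in 7 of 8 fits that left out a library. Outside the members 3 genes passed, and did so in each of the 8 fits that left out a library; their lists were also drawn up with earlier results known. FST differed by 1.17 (edgeR adjusted p = 0.00253): follistatin fell in HepG2 and rose in Hep3B, in both libraries of each line, from uncompressed levels of 410.0 CPM in HepG2 and 5.34 CPM in Hep3B. FSTL3 differed by -2.56 (edgeR adjusted p = 0.000922), going from 11.9 to 56.2 CPM in HepG2 and from 42.9 to 34.3 CPM in Hep3B. ATOH8 differed by -5.03 (edgeR adjusted p = 0.00231), a fitted value that is no bound, with 2 and 44 counts in HepG2 and 299 and 167 in Hep3B.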

How the results depend on the processing

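The libraries that entered the fit mattered most. With the same surface alone or the compared groups alone, genes passing were 3704 and 3704 for 4% PEG (9011 in the fit of all libraries; 5 members in each), 7099 and 7084 for the weight in HepG2 (1842; 8 members in each), 2826 and 2616 for the weight in Hep3B (202; 6 members in each), and 9603 and 9985 for 3% PEG (4323; 7 and 8 members). They were 9533 and 9428 for weight against 3% PEG (4444), and 4055 and 3645 for the difference of the weight effect between lines (364; 9 members in each). With no low-count filter the weight in Hep3B gave 456 genes and the line difference 675; DESeq2 gave 488 genes and 2 members, and 843 genes and 5 members. Leaving out each library gave 8619 to 9299 genes and 8 to 9 members for 4% PEG, 481 to 717 and 1 to 2 for the weight in HepG2, 37 to 121 and 0 for the weight in Hep3B, 2046 to 2204 and 3 to 4 for 3% PEG, 2102 to 2509 and 6 to 7 for weight against 3% PEG, 8403 to 8529 and 6 between uncompressed lines, and 102 to 144 and 1 to 2 for the line difference of the weight effect. A lone library left in a group is assumed to vary like the others. Scaling by total counts alone moved the median of all genes to 0.37 in 4% PEG and 0.35 between lines, and the share of calls that were higher from 50.9% to 70.5% in 4% PEG, 48.8% to 59.3% in 3% PEG, 50.9% to 40.5% in weight against 3% PEG and 50.5% to 65.5% between lines; BAMBI and TCF3 in 4% PEG then no longer passed (-0.29 and -0.28), and BMP2 and BAMBI in 3% PEG did (0.51 and 0.48). With no filter, ID1 passed and SMAD6 did not in weighted HepG2 (0.64 and 0.78). BAMBI passed in DESeq2 in weighted and in 3% PEG Hep3B (-0.53 and 0.40).

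Members that changed sign did so from values that had not passed. ID3 in 4% PEG was 0.0048 with the stricter filter of 5 CPM in 2 libraries, 0.3104 with total counts, 0.0234 with the replicate block and -0.6262 to 0.9678 with a library left out (above 0 without isotonic replicate 2 and without 4% PEG replicate 1, 0.0066). ID4 in weighted HepG2 was -0.4277 to 0.0505, above 0 without weight replicate 2. In weighted Hep3B, BMP6 was -0.7774 to 0.4442 and ID1 -0.0257 to 0.0701; both changed sign without uncompressed replicate 1 (0.3633 and -0.0053) and without weight replicate 2. In 3% PEG, ID3 was 0.0692 with total counts, 0.0362 in the transwell fit, 0.009 with the compared groups alone, and -0.0732 to 0.0414 with a library left out (above 0 without either replicate 1, 0.0354 for the uncompressed). ID4 there was -0.0261 with no filter, -0.0024 with the replicate block and -0.097 to 0.0929 with a library left out (below 0 without uncompressed replicate 2, -0.0255, and without 3% PEG replicate 1). SMAD6 in weight against 3% PEG was -0.3861 to 0.0351, above 0 without weight replicate 2 and without 3% PEG replicate 1 (0.0109). Between lines, BMP6 was 0.0309 and ID2 0.1839 with total counts, and BMP6 was -0.6843 to 0.168 with a library left out (above 0 without HepG2 replicate 1 and without Hep3B replicate 2, 0.021). The cause of these changes was not tested.

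In the fit with replicate number as a replicate block, 9419, 2149, 234 and 4724 genes passed in the order of the 4 compression comparisons, with 8, 5, 1 and 4 members. Replicate differences in both dish groups correlated at 0.828 across genes and at -0.0835 to 0.26 elsewhere, but the labels do not pair the samples. FST in weighted Hep3B no longer passed with the block (edgeR adjusted p = 0.0551; 0.0517 to 0.474 over the alternatives that ended its call).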
